A study of Mus musculus with 18 samples.

Results

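The Clcn5 intron cluster is a group of X-linked microRNA (miRNA) precursors in the mouse, and the 2 mature arms of miR-532 were its most uneven products in the eye and testicle libraries of this small RNA series, as was miR-532-3p alone in the lung libraries. Of the 9 mature miRNAs listed for the cluster, 8 were found among the 1431 miRNAs of the tables (mmu-miR-532-5p, mmu-miR-532-3p, mmu-miR-188-5p, mmu-miR-362-5p, mmu-miR-362-3p, mmu-miR-501-5p, mmu-miR-501-3p and mmu-miR-500-3p), and mmu-miR-660-5p was not analysed here. A further 2 arms of the same precursors, miR-188-3p and miR-500-5p, were added for context. The members were chosen by the counts of the miR-532 arms, which were present in some libraries of an organ and nearly absent in others, so the spread of miR-532 between libraries is described here and not tested.

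Small RNA was sequenced from left eye, right eye, left lung, right lung, left testicle and right testicle of male C57BL/6 mice, 3 libraries each, 18 in all. The mice were 8 to 12 weeks old, and the labels name no treatment and no genetic change. The labels do not say whether the left and right libraries came from the same mice, so p-values measure the spread between these libraries only, and n = 6 for an organ may overstate the replication. Eye libraries held 2451484 to 2680204 counts, lung libraries 2538402 to 2790471 and testicle libraries 952608 to 1893132. The marker miRNAs of each organ were in place: retinal and lens miRNAs summed to at least 190929 CPM (counts scaled to a common library total) in the eye libraries and to at most 12072.1 CPM elsewhere. Testicle markers summed to at least 55421.7 CPM in the testicle and to at most 1088.6 CPM elsewhere, and lung markers to at least 65209 CPM in the lung and to at most 31691.6 CPM elsewhere. In bulk organs, fewer cells of a type and less RNA per cell cannot be told apart.

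A miRNA is cut from a hairpin precursor whose 2 sides can each give a mature strand, named 5p and 3p, and one of them is usually kept in Argonaute while the other is degraded. The seed, bases 2 to 8 of the mature strand, does most of the target recognition. Clcn5 encodes an endosomal chloride and proton exchanger that is mutated in human Dent disease, and the precursors of this cluster lie within it and run in the same direction. Precursors inside one host intron can be cut from a single transcript, so their levels are often compared with each other. In mice, miR-188 is known for shifting bone marrow stromal cells between bone and fat, and in rat neurons miR-501-3p for lowering an AMPA receptor subunit.

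All 5 precursors that could be placed lie in an intron of Clcn5 on the minus strand of chromosome X (GRCm38.p6, GENCODE M21), a gene that spans 7153810 to 7319358. In the direction of transcription Mir532 comes first (7248402 to 7248497). Mir188 begins 441 bases after the start of Mir532 (7247989 to 7248056), Mir362 6451 bases after it (7241982 to 7242046), Mir501 7146 bases after it (7241243 to 7241351) and Mir500 10723 bases after it (7237683 to 7237774). RefSeq (GRCm38.p6) held the mature sequence of 7 of the 9 listed miRNAs. They are shown 5′ to 3′ with the seed in capitals, so that shared seeds and alike arms can be seen.
miR-532-3p: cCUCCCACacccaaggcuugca
miR-188-5p: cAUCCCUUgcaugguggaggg
miR-362-5p: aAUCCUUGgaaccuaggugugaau
miR-362-3p: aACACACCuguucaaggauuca
miR-501-5p: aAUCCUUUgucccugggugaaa
miR-501-3p: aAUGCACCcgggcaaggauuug
miR-500-3p: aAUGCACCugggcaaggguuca

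The 3p arms of miR-501 and miR-500 have the same seed and the same base at 18 of 22 positions, and differ at 4. MiR-362-3p has the same base as miR-500-3p at 17 of 22, with another seed. Reads of such arms could be split between them by the authors' counting, whose rules for alike arms no source used here gives. Their values are uncertain to that extent. The 5p arms of miR-362 and miR-500 also share a seed, and miR-362-3p shares its seed with miR-329-3p, a miRNA from outside the cluster. MiR-532-3p shares its seed with no other mature mouse miRNA of the RefSeq table. The longest run of bases it has in common with any other mature miRNA there is 9, and with its neighbour miR-188-3p it is 8. MiR-188-3p itself had 0 to 8 counts in any library, also in the libraries with no miR-532-3p.

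**Figure D1:**
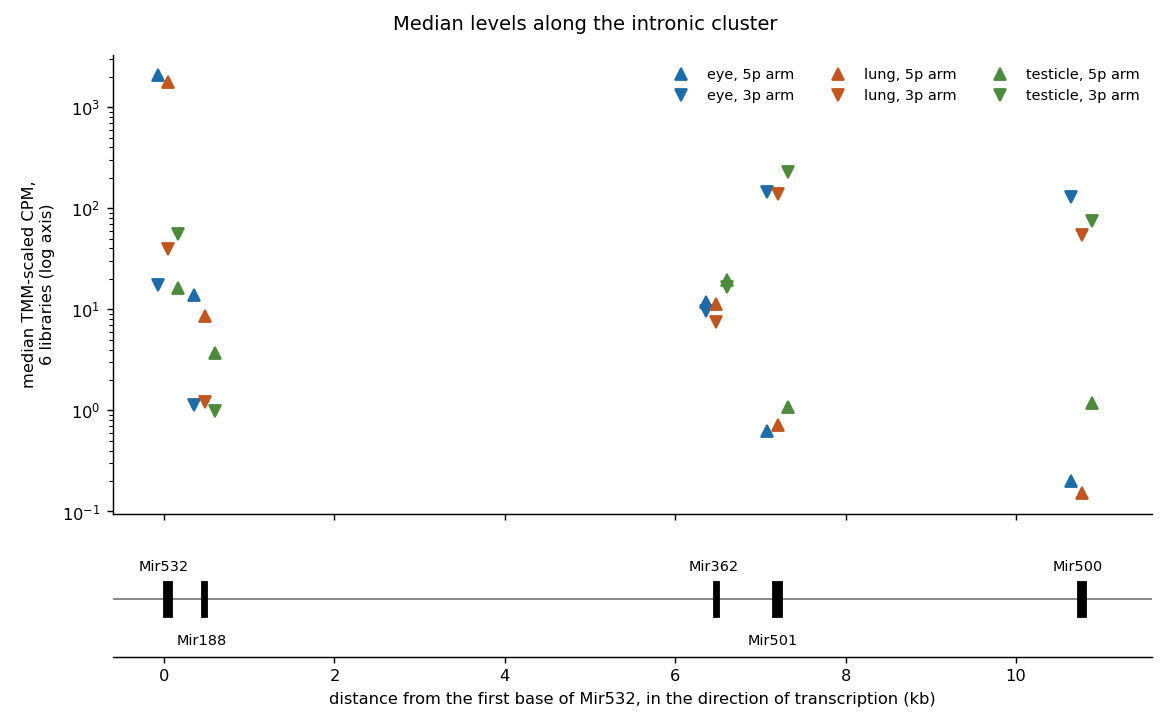
Median levels of the cluster arms (upper panel; TMM-scaled CPM, log axis; median of 6 libraries per organ; upward triangles 5p arms, downward triangles 3p arms; eye, lung and testicle set side by side with a small offset) above the positions of the 5 precursors (lower panel; kb from the first base of Mir532). MiR-532-5p has the highest median of the cluster in eye (2055.1 CPM) and lung (1788.4 CPM), while in the testicle its median is 16.4 CPM and miR-501-3p leads with 227 CPM.

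MiR-532-5p was either abundant or nearly missing, with nothing in between. In the left eye its counts were 7155, 16 and 6195 in libraries 1, 2 and 3, and in the right eye 5554, 5257 and 23. In the left lung they were 3816, 6792 and 5113, and in the right lung 6505, 6158 and 4453. In the left testicle they were 4, 21 and 5, and in the right testicle 22, 3299 and 2653. All 6 lungs, 4 of 6 eyes and 2 of 6 testicles therefore held the miRNA at 2653 counts or more, while left eye 2, right eye 3, all left testicles and right testicle 1 held 23 or fewer. No library lay between 23 and 2653 counts. The low libraries included both sides and all 3 replicate numbers, and came from eye and testicle.

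In the 12 libraries that held it, miR-532-5p ranked 54th to 76th of all miRNAs by counts and took 0.147% to 0.267% of a library. In the other 6 it ranked 370th to 488th. The low counts were above 0 in each case: 16 counts in left eye 2 carry an exact 95% Poisson interval of 9.15 to 26, and 4 counts in left testicle 1 one of 1.09 to 10.2. Such intervals and floors cover counting error only, because PCR copies were not separated from independent molecules in the sources used here. In counts, with no correction for depth, the eye libraries with the highest and lowest miR-532-5p differed 447-fold, the testicle libraries 825-fold and the lung libraries 1.78-fold. Left testicle 1, with the lowest count, was also the shallowest library. In TMM-scaled CPM the ranges were 6.08 to 2566.1 for eyes, 4.29 to 2102.2 for testicles and 1364.7 to 2511.4 for lungs.

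MiR-532-3p, the other arm of the same hairpin, was uneven too, but in other libraries. In the left eye it had 0, 107 and 0 counts in libraries 1, 2 and 3, and in the right eye 454, 0 and 82. In the left lung it had 430, 258 and 3 counts, and in the right lung 0, 216 and 2. In the left testicle it had 144, 120 and 69 counts, and in the right testicle 2, 3 and 59. Each of 10 libraries thus held 59 or more and each of the other 8 held 3 or fewer. With 0 counts seen, a level of up to 3 counts cannot be told from none, or 1.119 to 1.224 CPM of the library total for an eye and 1.075 to 1.182 CPM for a lung.

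The arms were not lost together. In 5 libraries both were present, with miR-532-5p at 1000 counts or more and miR-532-3p at 50 or more: right eye 1, left lung 1, left lung 2, right lung 2 and right testicle 3. In 7 libraries miR-532-5p alone was present (left eye 1, left eye 3, right eye 2, left lung 3, right lung 1, right lung 3 and right testicle 2). In 5 libraries miR-532-3p alone was present (left eye 2, right eye 3 and all 3 left testicles), and right testicle 1 lacked both. In left testicle 1 the 3p arm had 144 counts against 4 of the 5p arm, and in left eye 1 the 5p arm had 7155 counts against 0 of the 3p arm, so the arm with more counts changed from library to library. No source used here gives the rules by which reads were assigned to either arm, so these are counts as assigned, and their dependence on that step was not tested.

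**Figure D2:**
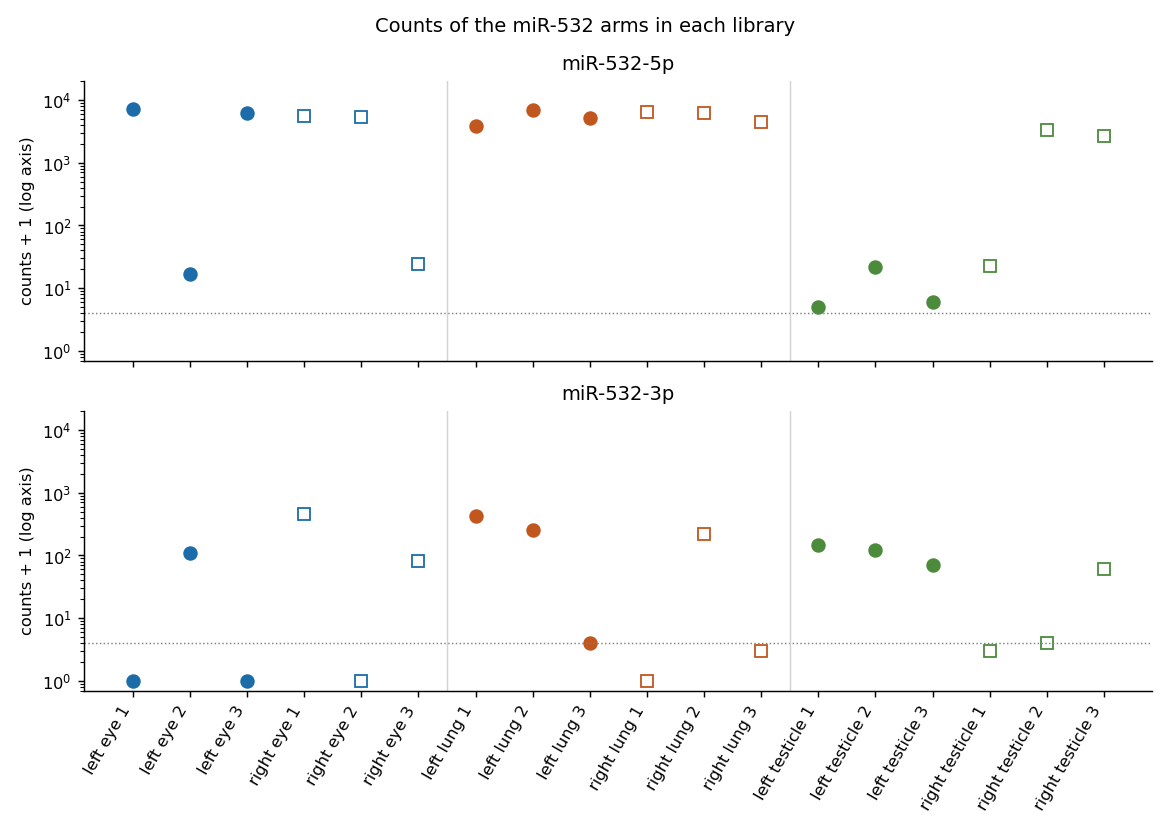
Counts of miR-532-5p (upper panel) and miR-532-3p (lower panel) in the 18 libraries, plotted as counts + 1 on a log axis (blue eye, orange lung, green testicle; filled circles left, open squares right; the dotted line marks 3 counts). The 5p arm falls into 12 libraries at 2653 to 7155 counts and 6 at 4 to 23, and the 3p arm into 10 libraries at 59 to 454 counts and 8 at 0 to 3, with different libraries low in each panel.

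The neighbours in the same intron did not drop out with miR-532. The 8 neighbour arms summed to 537 to 1105 counts per eye, 316 to 948 per lung and 302 to 638 per testicle. Left eye 2, with 16 counts of miR-532-5p, had 859 neighbour counts, and left eye 1, with 7155, had 660. Some libraries low in an arm of miR-532 also had the lowest neighbour sum of their organ: right eye 3 (537), right lung 1 (316, with no miR-532-3p) and left testicle 3 (302). The ratio of miR-532-5p to the summed neighbours within a library, which needs no scaling, was 0.0186 to 10.8 over the eyes, 5.39 to 20.6 over the lungs and 0.0092 to 6.21 over the testicles. MiR-501-3p, the most abundant neighbour, stayed between 203 and 520 counts in all 18 libraries, and miR-500-3p between 63 and 483.

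No ranked cluster member was among the 5 miRNAs whose pattern was most like that of miR-532-5p. Likeness was Pearson's r of log2(CPM + 1) after subtracting each organ's mean, over 18 libraries that share organ composition and depth, for 453 other miRNAs with a mean of at least 10 CPM. It is given as a description with no p. The nearest to miR-532-5p were miR-10a-5p (r = 0.60), miR-672-5p (0.59), miR-669p-5p and miR-669a-5p (0.58 each) and miR-382-5p (0.54). None of these had the gap of miR-532-5p between libraries of the eye. The ranked neighbours stood far lower: miR-501-3p at 0.07, miR-362-5p at 0.03, miR-362-3p at -0.10 and miR-500-3p at -0.15. MiR-532-3p stood at -0.38. MiR-188-5p, with a mean of 8.89 CPM, was too low to be ranked. In the testicle it was highest in right testicles 2 and 3 (7.65 and 5.31 CPM), which held miR-532-5p, against 0.966 to 3.74 CPM in the rest. These values rest on 12 and 7 counts against 1 to 6, and right testicles 2 and 3 were also the deepest testicles. In the eye miR-188-5p was highest in left eye 2 (18.2 CPM), low in miR-532-5p, and lowest in left eye 1 (4.66 CPM), which held miR-532-5p. With miR-532-3p the ranked neighbours had r of -0.14 (miR-362-3p) to 0.35 (miR-500-3p).

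Such unevenness was rare but not limited to miR-532. The spread of a miRNA in an organ was taken as the highest minus the lowest of 6 libraries on the log2(CPM + 1) scale, where the scale factors are trimmed means of M values (TMM). The median spread was 0.70 over 399 eye miRNAs, 1.34 over 337 lung miRNAs and 0.91 over 444 testicle miRNAs with a mean of at least 10 CPM. MiR-532-5p had the widest spread in the eye (8.50), and miR-532-3p was next (7.52). In the lung miR-532-3p had the widest spread (7.30), whereas miR-532-5p, at 0.88, was below the median. In the testicle miR-532-5p (8.63) was exceeded by 8 miRNAs and miR-532-3p (5.80) by 10. The spread of the neighbour miR-501-3p was 0.68 for eyes, 1.02 for lungs and 0.67 for testicles, and that of miR-500-3p was 1.23, 1.65 and 0.74.

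**Figure D3:**
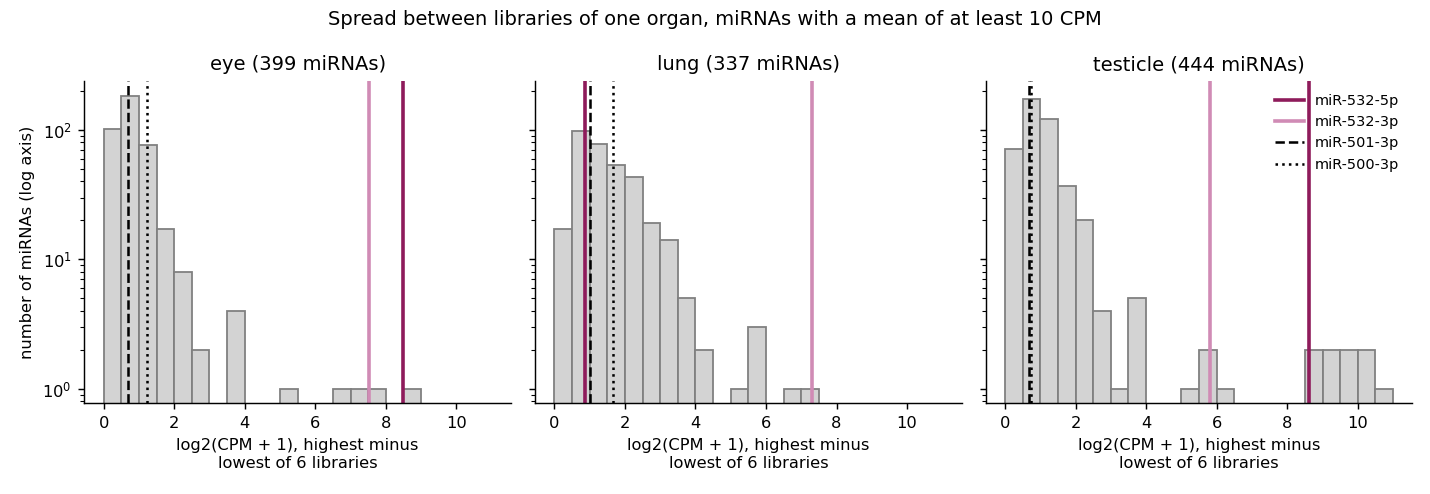
Number of miRNAs (log axis) by spread between the 6 libraries of an organ (highest minus lowest log2(CPM + 1), equal bins), for miRNAs with a mean of at least 10 CPM. Coloured lines mark the miR-532 arms and black lines 2 neighbours: in the eye both miR-532 arms (8.50 and 7.52) lie at the far right, in the lung only miR-532-3p does (7.30), and miR-501-3p lies near the bulk in every organ.

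Spreads of 5 or more, a 32-fold range, were found for 5 eye, 6 lung and 13 testicle miRNAs. The following names were chosen after their values were seen. Besides the miR-532 arms the eye had miR-297c-5p, miR-744-5p and miR-669c-5p. MiR-744-5p had 871, 15 and 1239 counts in left eyes 1, 2 and 3 and 7, 11 and 20 in the right eyes, so right eye 1, which held both miR-532 arms, was among its lowest. The other arm, miR-744-3p, stayed at 52 to 114 counts in the eye, unlike miR-532-3p. Of the 8 testicle miRNAs more uneven than miR-532-5p, 7 were X-linked members of the miR-506 family (miR-880-3p, miR-743b-3p, miR-878-3p, miR-871-3p, miR-465c-5p, miR-881-3p and miR-741-5p) and the other was miR-297c-5p.

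Depth and tissue markers of the libraries with little miR-532-5p were as follows. Left eye 2 and right eye 3 had 2501632 and 2451484 counts, and the other eyes 2495225 to 2680204. Their eye markers summed to 205407.5 and 215424.2 CPM, inside the range of the other eyes, and their striated muscle markers to 6488.6 and 7143.4 CPM, also inside it. The 4 testicles low in miR-532-5p were the shallowest, at 952608 to 1569527 counts, against 1692817 and 1893132 in right testicles 3 and 2, which held it. In the testicle the red cell list (miR-451a, miR-144-3p and miR-486a-5p) summed to 230 CPM in left testicle 1 and 262 CPM in right testicle 1, both low in miR-532-5p, and to 4559.2 to 8171.6 CPM in the other 4 testicles, of which left testicles 2 and 3 were also low in it. MiR-451a was itself among the 13 testicle miRNAs with a spread of 5 or more, so this sum may follow that miRNA and not red cell content. The part of depth or of red cells in the miR-532 counts was not tested.

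Among the neighbours, miR-501-3p and miR-500-3p were the most abundant and were the dominant arms of their hairpins. The 5p arms of the same hairpins were close to absent: miR-501-5p had at most 5 counts and miR-500-5p at most 3 in any library. The 8 neighbour arms were filtered by edgeR's expression filter together with all miRNAs, of which 642 of 1431 passed. The 5 arms that passed over all 18 libraries were miR-501-3p, miR-500-3p, miR-362-5p, miR-362-3p and miR-188-5p, and miR-188-5p passed through its eye and lung libraries, having at most 12 counts in the testicle. Organs were compared on TMM-scaled CPM by edgeR's quasi-likelihood test with Benjamini-Hochberg adjustment over the 642 miRNAs.

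MiR-500-3p was higher in eye than in lung libraries, the only tested neighbour to pass in that comparison. Its level was 82.1 to 194 CPM in the eye (median 128) and 24.3 to 78.7 CPM in the lung (median 53.8). On this TMM scale the organs did not overlap. By library totals they did: left lung 3 (96.0 CPM) lay above left eye 1 (85.4 CPM) and right eye 3 (85.3 CPM). The log2 fold change was 1.30 (SE 0.26; edgeR adjusted p 2.8e-04), and without right eye 2 it was 0.59 with an adjusted p of 0.052. Of 5 tested neighbours 1 passed, against 59.8% of all 642 miRNAs in this comparison, of which 35.4% were higher in the eye. The median log2 fold change was 0.28 for the 5 arms and 0.00 for all tested miRNAs.

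The other 4 arms did not pass between eye and lung. MiR-501-3p had 111 to 178 CPM in the eye and 81.1 to 165 CPM in the lung (log2 fold change 0.14, SE 0.20). The log2 fold changes of miR-188-5p, miR-362-3p and miR-362-5p were 0.40 (SE 0.32), 0.28 (SE 0.32) and 0.22 (SE 0.30). The edgeR adjusted p was 0.31 to 0.58, and all 4 values changed sign when the scaling was set on left testicle 1 and again when right eye 2 was left out. In both of these miR-501-3p was called lower in the eye (-0.58 and -0.61, edgeR adjusted p 0.025 each).

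Between eye and testicle, miR-188-5p stood out as the arm that was higher in the eye by the most. It had 4.66 to 18.2 CPM in the eye (median 13.9; 13 to 48 counts) and 0.966 to 7.65 CPM in the testicle (median 3.67; 1 to 12 counts). The log2 fold change was 1.68 with an SE of 0.39 (edgeR adjusted p 8.9e-04). Because this arm passed the filter only through the organs where it was higher, the value with no filter is given too, 1.60 (edgeR adjusted p 8.1e-05). The organs overlapped only through left eye 1, the lowest eye, and right testicles 2 and 3, the highest testicles.

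MiR-500-3p was also higher in the eye than in the testicle, with 82.1 to 194 CPM against 63.7 to 107 CPM (log2 fold change 0.68 with an SE of 0.26; edgeR adjusted p 0.022), but this call was lost in 10 of 18 fits that left out 1 library (0.43 to 0.80 over all 18), with no filter (0.61) and with the scaling set on left testicle 1 (0.50). Among the 10 were the fits without left lung 1, left lung 2, right lung 1 or right lung 2 (0.46 each). Lung libraries are not part of this contrast. MiR-501-3p went the other way, at 111 to 178 CPM in the eye and 196 to 312 CPM in the testicle (-0.71, SE 0.20; edgeR adjusted p 0.0039). So did miR-362-3p, at 6.81 to 12.5 CPM in the eye and 10.6 to 24.9 CPM in the testicle (-0.79, SE 0.32; edgeR adjusted p 0.032). MiR-500-3p and miR-501-3p, which share a seed, thus had opposite signs. The calls for miR-501-3p and miR-362-3p were lost, with their sign kept, when library totals were used without scaling factors (log2 fold changes -0.44 and -0.54) or the scaling was set on left lung 1 (-0.22 and -0.29), and that for miR-362-3p also without left eye 1, left eye 2, left eye 3 or left testicle 2 (-0.81 to -0.61). MiR-362-5p did not pass (-0.66, SE 0.31; edgeR adjusted p 0.060), but it was called with DESeq2 (-0.62), with the scaling set on left testicle 1 (-0.82) and in 7 of 18 fits without 1 library (-0.91 to -0.86). The same lung libraries were left out in some of these 7 fits (-0.87 each). With 2 arms higher and 2 lower, 4 of 5 tested arms passed, against 79.3% of all tested miRNAs (40.2% higher and 39.1% lower in the eye). The median log2 fold change was -0.66 for the 5 arms and 0.05 for all.

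Lung and testicle differed in all 5 tested arms, against 76.5% of all tested miRNAs, with 27.4% of all higher in the lung and 49.1% lower. MiR-188-5p was higher in the lung, at 6.42 to 17.9 CPM against 0.966 to 7.65 CPM in the testicle (log2 fold change 1.29 with an SE of 0.40; edgeR adjusted p 0.0075), with right testicle 2 above left lung 2 and right lung 2. With no filter it was 1.31 (edgeR adjusted p 0.0020). The other 4 arms were lower in the lung: miR-501-3p (-0.85, SE 0.20; edgeR adjusted p 0.0011), miR-362-3p (-1.07, SE 0.32; edgeR adjusted p 0.0063), miR-362-5p (-0.88, SE 0.31; edgeR adjusted p 0.016) and miR-500-3p (-0.62, SE 0.26; edgeR adjusted p 0.040). The median of the 5 arms was -0.85 and that of all tested miRNAs -0.90. With SEs of 0.20 to 0.32, none of the lower arms (-1.07 to -0.62) stood apart from the shift of the whole table. The 4 calls were lost with library totals alone, with the scaling set on left lung 1 or on left testicle 1, and without right eye 2. Right eye 2 is not part of this contrast. MiR-500-3p was not called in 10 of 18 fits without 1 library (0.00 without right eye 2), with relative log expression or DESeq2 (-0.41 each), with no filter (-0.59) or when replicate number was a block (-0.63, edgeR adjusted p 0.052). Fits without left eye 2 (-0.60) or left eye 3 (-0.59), also outside this contrast, were among the 10.

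**Figure D4:**
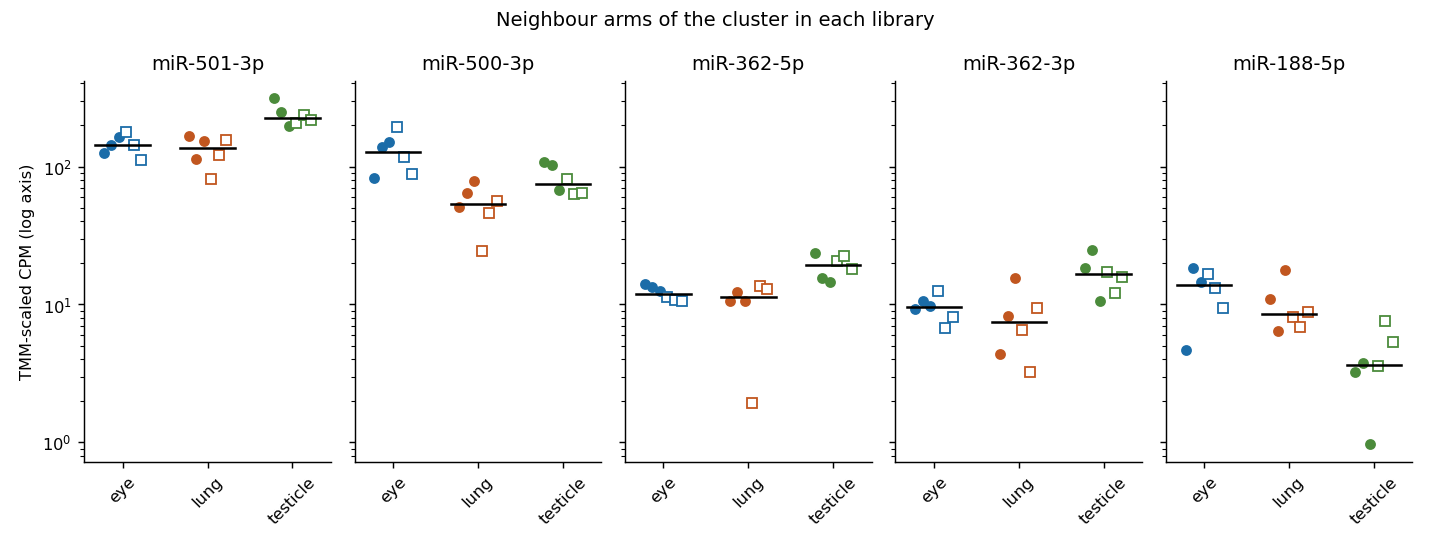
TMM-scaled CPM (log axis) of the 5 tested neighbour arms in each library of eye, lung and testicle (filled circles left, open squares right; black bars medians of 6 libraries). MiR-500-3p is highest in the eye (median 128 CPM), miR-188-5p is lowest in the testicle (median 3.67 CPM), and 1 lung library, right lung 1, lies far below the others for miR-362-5p (1.93 CPM).

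Other X-linked miRNAs were also counted. Of 116 miRNAs of the tables that RefSeq places on chromosome X outside the cluster, 71 were tested. For eye against lung 3 were higher and 32 lower, for eye against testicle 13 and 51, and for lung against testicle 27 and 38 (edgeR adjusted p under 0.05). Over all 642 tested miRNAs the shares higher and lower were 35.4% and 24.5%, 40.2% and 39.1%, and 27.4% and 49.1%, in that order. Their median log2 fold changes were -1.50, -3.37 and -1.57, and those of the 5 cluster arms 0.28, -0.66 and -0.85. The filter kept any miRNA expressed in enough libraries of a group. Those kept through the testicle alone were bound to be lower in the other organs, so these medians are no neutral reference for the cluster.

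Ratios within a library show which differences between organs do not depend on scaling. Each of 4 arms was divided by miR-501-3p in the same library, and organs were compared by a two-sided exact permutation test of the mean log2 ratio, 6 libraries against 6, in which 0.0022 is the smallest p possible. The 12 tests were adjusted together, and they were chosen after the data were seen. A ratio shows unequal change and not which of the 2 arms changed.

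For each count of miR-501-3p there were 0.652 to 1.09 counts of miR-500-3p in eyes, 0.300 to 0.563 in lungs and 0.271 to 0.416 in testicles. Every eye lay above every lung and every testicle, with log2 differences of 1.14 for eye against lung and 1.35 for eye against testicle (exact permutation p 0.0022 for both, adjusted 0.0065). Lung and testicle overlapped (log2 difference 0.22, exact permutation p 0.27). Each lung and each testicle library thus had more counts of miR-501-3p than of miR-500-3p, as did every eye library except right eye 1 (1.09). These arms have the same base at 18 of 22 positions. Their ratio therefore depends on how the authors' counting split such reads, which was not tested.

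MiR-188-5p per count of miR-501-3p was 0.037 to 0.128 in eyes, 0.0565 to 0.117 in lungs and 0.00493 to 0.0325 in testicles. Every testicle lay below every eye and every lung, with log2 differences of 2.47 for eye against testicle and 2.29 for lung against testicle (exact permutation p 0.0022 for both, adjusted 0.0065). Eye and lung overlapped (0.18, exact permutation p 0.57). The testicle values rest on 1 to 12 counts per library. MiR-188-5p was among the arms that passed the filter through its eye and lung libraries, where it was higher. These p-values are therefore not independent of that choice.

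For the arms of miR-362 no difference in proportion to miR-501-3p passed between organs. The median ratio of miR-362-5p was 0.0851 for eyes, 0.076 for lungs and 0.0796 for testicles, and that of miR-362-3p 0.0715, 0.0669 and 0.0658. Their log2 differences between organs were -0.32 to 0.30 with exact permutation p of 0.41 to 0.78, and all pairs of organs overlapped. Both arms of this hairpin were counted in every library, with 25 to 39 counts of miR-362-5p and 17 to 31 of miR-362-3p per eye, 5 to 42 and 9 to 53 per lung, and 15 to 35 and 11 to 40 per testicle. Either arm could lead: right lung 2 had 38 and 9 counts of the 5p and 3p arms, and right lung 1 had 5 and 17.

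**Figure D5:**
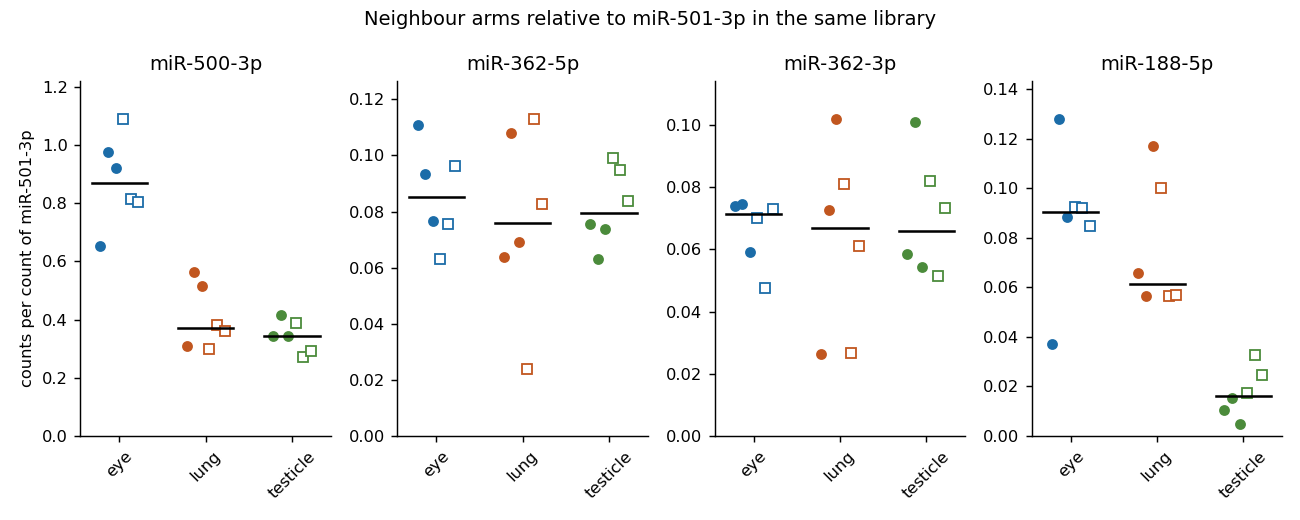
Counts of miR-500-3p, miR-362-5p, miR-362-3p and miR-188-5p per count of miR-501-3p in the same library, by organ (linear axes from 0; filled circles left, open squares right; black bars medians of 6 libraries). The miR-500-3p ratio sets the eye apart (0.652 to 1.09), the miR-188-5p ratio sets the testicle apart (0.00493 to 0.0325), and the miR-362 ratios overlap between organs.

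No tested neighbour arm passed between left and right in any organ. The log2 fold changes of left against right were -0.09 to 0.29 for 5 arms of the eye libraries and 0.19 to 0.55 for 5 arms of the lung libraries. In the testicle, where miR-188-5p was not tested, they were -0.01 to 0.61 for 4 arms. Their SEs were 0.20 to 0.45 for eyes, 0.38 to 0.61 for lungs and 0.22 to 0.36 for testicles. Over all miRNAs edgeR called 0% in each organ, of 487, 430 and 464 tested, with 18, 1 and 36 at an unadjusted p under 0.05, and DESeq2 called 1, 0 and 1. The largest side difference was that of miR-500-3p in the testicle, at 0.61 (SE 0.25; edgeR adjusted p 0.57). A joint edgeR test of unequal side differences among the 3 organs called 0% of 642 miRNAs, and the adjusted p was 1 for each of the 5 arms.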

How the data were processed

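The authors' deposited tables give whole-number counts of each mature miRNA, 1 table per library, and their values show no normalization. Per the submitters' processing notes the build was GRCm38.p6; no source used here gives the aligner, the counting rules or the treatment of strand. Per the labels' protocols, RNA was purified on spin columns and libraries followed a BGI-500 protocol.

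Counts were analysed in R 4.3.3 with edgeR 4.0.16: TMM scaling, filterByExpr by group, and the quasi-likelihood test, calling an adjusted p under 0.05. Organs were compared in 1 fit of 6 groups, as the mean of left and right, and sides on the 6 libraries of an organ. DESeq2 1.42.0 was an alternative. Levels are TMM-scaled CPM except marker sums and floors, which use library totals. Procedures were tested on simulated data. Within-library ratios used exact permutation in scipy 1.17.1. The members and lists were chosen with earlier results of these data known. The text names every cluster arm in the tables and the 5 miRNAs most like miR-532-5p. Alternatives were other scalings, no filter, the replicate number as a block, and each library left out.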

Additional observations from a re-analysis of the deposited data

Results flagged for a closer look

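Among the lungs, miR-362-5p had 1.93 CPM (5 counts) in right lung 1, against 10.5 CPM in the next lowest of the 6, a gap above Dixon's 95% limit for its share of the range. Chance alone passes that limit in about 5% of sets, and 24 sets of a neighbour arm and an organ were examined.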

How the results depend on the processing

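The median log2 fold change of all miRNAs for eye against lung was 0.00, and -0.51 with the scaling set on left testicle 1, where 2 arms were called and miR-501-3p (-0.58, called lower in the eye), miR-188-5p (-0.32), miR-362-5p (-0.45) and miR-362-3p (-0.42) changed sign. With size factors by relative log expression, and with DESeq2, miR-501-3p was -0.05. For eye against testicle 2 arms were called with library totals or the scaling on left lung 1. For lung against testicle 1 arm was called with library totals, left lung 1 or left testicle 1. With library totals, left against right reversed to 0.09 for miR-188-5p and 0.06 for miR-500-3p (eye) and to 0.09 for miR-362-5p (testicle). Over all miRNAs, no filter gave 6 calls between left and right eye, 1 for the lung and 7 for the joint test of sides, and DESeq2 gave 1 for the eye and 1 for the testicle. The cause of these changes was not tested. The within-library ratios need no scaling.

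Leaving out 1 library at a time, arms called ranged from 2 to 4 for eye against testicle (2 without left eye 3) and from 1 to 5 for lung against testicle (1 without right eye 2). Scaling and spread were estimated anew in each such fit, also where the library left out was from the third organ, as right eye 2 is here. For eye against lung the log2 fold change ranged from -0.36 to 0.60 for miR-188-5p, -0.49 to 0.34 for miR-362-5p, -0.37 to 0.54 for miR-362-3p and -0.61 to 0.23 for miR-501-3p, each lowest without right eye 2, where the 1 called arm was miR-501-3p and not miR-500-3p (0.59, edgeR adjusted p 0.052). For lung against testicle that of miR-500-3p ranged from -0.72 to 0.00. Between left and right eye the ranges were -0.39 to 0.33 for miR-188-5p, -0.04 to 0.40 for miR-362-3p, -0.30 to 0.25 for miR-500-3p and -0.13 to 0.17 for miR-501-3p. Between left and right lung they were -0.26 to 0.54 for miR-362-5p and -0.18 to 0.84 for miR-362-3p, and for the testicle -0.30 to 0.11 for miR-362-5p. Calls over all miRNAs ranged from 0 to 1 between sides of the eye, between sides of the testicle and in the joint test. Ratios to miR-501-3p changed sign for miR-362-5p (-0.01 to 0.44 for eye against lung, -0.01 to 0.15 for eye against testicle, -0.37 to 0.08 for lung against testicle) and miR-362-3p (-0.13 to 0.06 for eye against testicle), none of them called. The called ratios of miR-500-3p (1.06 to 1.24 and 1.29 to 1.43) passed each time. Those of miR-188-5p (2.15 to 2.70 and 1.97 to 2.51) did too, for an arm that passed the filter through its eye and lung libraries.

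The replicate numbers were not taken to pair the libraries, since not every same-numbered left and right pair had deviations correlated over 0.1 in any organ: r was -0.42 to -0.11 for eyes, -0.02 to 0.40 for lungs and 0.02 to 0.24 for testicles. Of 6 libraries each, 0 eyes, 4 lungs and 5 testicles matched their own number best, a hint of pairing from the data in lung and testicle. With the replicate number as a block, 1 arm was called between eye and lung, 4 between eye and testicle and 4 between lung and testicle, where miR-500-3p had -0.63 (edgeR adjusted p 0.052), and no other call changed. The lower depth of the testicle limits miR-188-5p there, and miR-188-3p, miR-501-5p and miR-500-5p could not be tested at this depth in any organ.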
